A study of Homo sapiens with 14 samples.

Results

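The genes of fatty acid synthesis and desaturation were followed in U2OS cells, a human osteosarcoma line, treated with small molecules and profiled by poly(A) RNA sequencing. The members were the rows carrying the symbols SREBF1, ACLY, ACSS2, ACACA, FASN, SCD, FADS1, FADS2, ELOVL6 and ELOVL5, and 10 of 10 were found in both deposited tables, among 22919 symbols that the tables share. The treated groups with 2 replicates were GSK343 at 10 µM for 24 h, 2-PCPA at 1 mM for 12 h and rapamycin at 5 µM for 24 h. The treated groups with 1 library were UNC1215 at 50 µM for 24 h, SAHA at 1 µM for 24 h, BIX-01294 at 5 µM for 12 h, VPA at 20 µM for 24 h, GSK-J4 at 20 µM for 12 h and BRD4770 at 20 µM for 24 h. The reference was DMSO at 0.5% v/v, the vehicle, with 2 replicates, whose hours of exposure the labels do not give. The labels do not state that replicates came from different cultures, so each p-value reflects the spread between libraries, which may be technical. Hours of exposure may therefore differ between any compound and DMSO, and they do differ between 2-PCPA and rapamycin, so in those pairs time and compound cannot be told apart. GSK343 and rapamycin were both given for 24 h.

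Cells build palmitate in the cytosol from acetyl-CoA. ACLY makes the acetyl-CoA from citrate and ACSS2 makes it from acetate, ACACA carboxylates it to malonyl-CoA, and FASN joins the units into a saturated chain. SCD then places a double bond to give monounsaturated fatty acids, ELOVL6 lengthens saturated and monounsaturated chains, and FADS1, FADS2 and ELOVL5 desaturate and lengthen polyunsaturated chains. SREBF1 encodes SREBP-1, a membrane-bound factor that is cut in the Golgi when sterols are low and that drives transcription of these enzymes. Among the compounds, GSK343 inhibits the histone methyltransferase EZH2, BIX-01294 and BRD4770 inhibit G9a, UNC1215 binds the methyl-lysine reader L3MBTL3, GSK-J4 inhibits KDM6 demethylases, 2-PCPA inhibits LSD1 and monoamine oxidases, SAHA and VPA inhibit histone deacetylases, and rapamycin inhibits mTOR complex 1, which itself promotes SREBP activity.

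The 14 libraries had between 12045 and 13157 genes at 1 FPKM (fragments per kilobase of transcript, scaled to library size) or more. Sequencing depth as a multiple of that of DMSO, read from the steps between low values, lay between 0.555 in BIX-01294 and 1.24 in SAHA in replicate 1, and between 0.674 in GSK343 and 0.807 in 2-PCPA in replicate 2. The 2-PCPA library of replicate 1 stood apart: 28.5% of 393 olfactory receptor genes, which these cells should not use, were above 0 in it, against 2.80% to 6.62% in the other libraries of that table, and its median gene lay at −0.43 relative to DMSO on the log2(FPKM + 1) scale. Of 7 osteoblast-lineage markers, COL1A1 (74.0 to 187 FPKM) and SPARC (154 to 330 FPKM) were present in every library, while COL1A2 did not pass 0.0987 FPKM anywhere. BGLAP was listed at 0 in every replicate 1 library and at 41.7 to 50.9 FPKM in replicate 2. Summed levels of 6 adipocyte markers stayed within 0.232 to 2.78 FPKM and those of 5 blood markers within 0 to 0.793 FPKM, and the hepatocyte list reached 12.9 to 38.6 FPKM, of which SERPINA1 held 12.4 to 38.1 FPKM, with TTR listed at 0 in every library. Ratios in cultured cells compare shares of RNA, so fewer cells and less RNA per cell cannot be told apart.

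GSK343 had the highest level of 9 of the 10 genes in replicate 1, among all 9 compounds and DMSO, and all 10 lay above DMSO in both of its replicates. UNC1215, with 1 library, also held all 10 above DMSO, by smaller ratios than GSK343 of the same table for 9 of them, ELOVL5 being the exception. The member median log2 ratio was 0.56 in UNC1215, beside 1.31 in GSK343 replicate 1 and 0.64 in GSK343 replicate 2. Rapamycin lay below DMSO in both replicates for 7 genes, of which ACSS2 was at −0.0016 in log2 ratio in replicate 1. ACACA, FASN and FADS2 were past 1.5-fold lower in both BRD4770 and GSK-J4, and SREBF1 and ELOVL6 in BRD4770 too. Across compounds SCD, FASN, ACSS2 and FADS2 spanned the widest ranges and ELOVL5 the narrowest. No member passed an adjusted p of 0.05 in the limma fit over 12603 genes in any of the 5 comparisons with 2 replicates a side. When 361 rows of small RNAs and clone names were left out of the same fit, which raised its prior degrees of freedom to 24.8, against 5.42 with them, 4 members passed for GSK343 against DMSO, and these are given with that result.

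**Figure D1:**
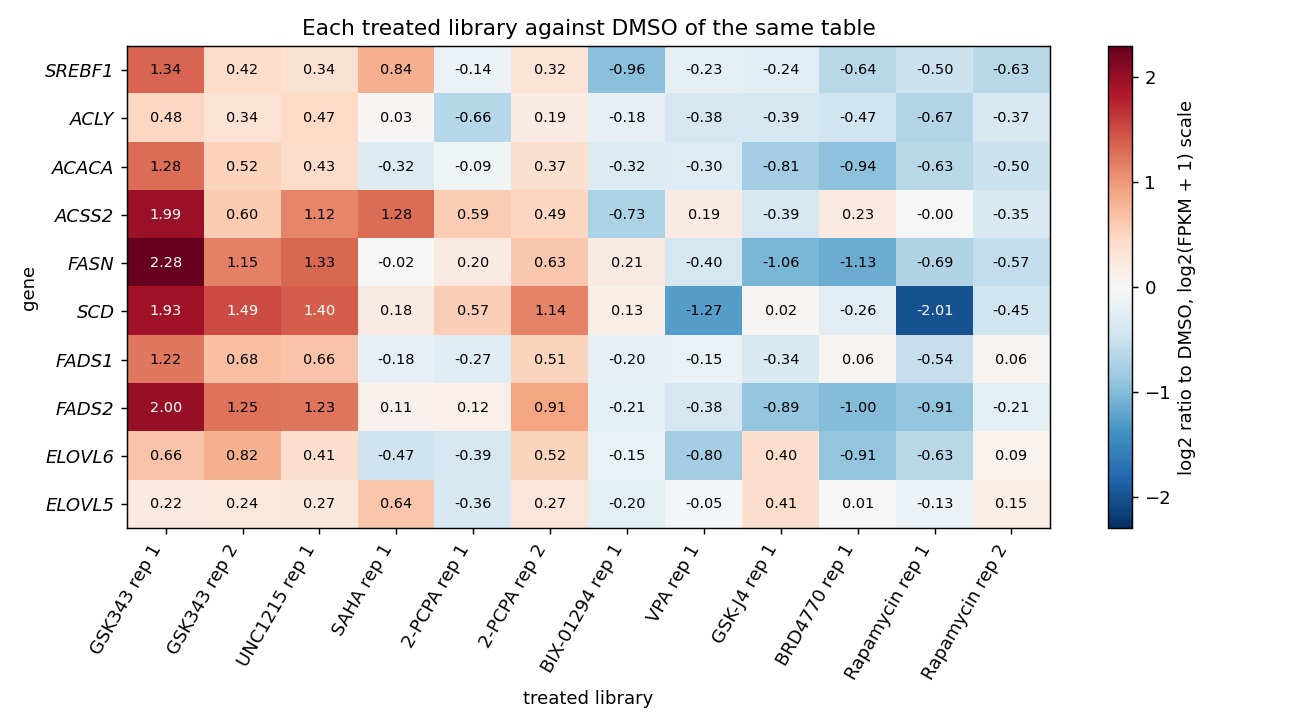
Log2 ratio of each treated library to DMSO of the same table, on the log2(FPKM + 1) scale (colour and printed value), for the 10 genes (rows) in the 12 treated libraries (columns, rep is replicate). The GSK343 and UNC1215 columns are positive in every row, SCD reaches −2.01 in rapamycin replicate 1, and the ELOVL5 row stays between −0.36 and 0.64.

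In DMSO the genes spanned a wide range of levels per kilobase. ACLY had 71.5 FPKM in replicate 1 and 70.1 FPKM in replicate 2, FADS2 had 68.3 and 66.5 FPKM, and ELOVL5 had 64.4 and 63.5 FPKM. SCD, at 57.2 and 50.8 FPKM, and FASN, at 50.9 and 62.9 FPKM, overlapped each other below these. FADS1 followed with 36.7 and 27.4 FPKM. ACACA (13.7 and 9.01 FPKM), ELOVL6 (12.7 and 9.07 FPKM) and SREBF1 (9.88 and 12.0 FPKM) overlapped, so their order was not resolved. ACSS2 was the lowest, with 3.19 and 4.85 FPKM, so its ratios on the log2(FPKM + 1) scale are the most compressed of the set.

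**Figure D2:**
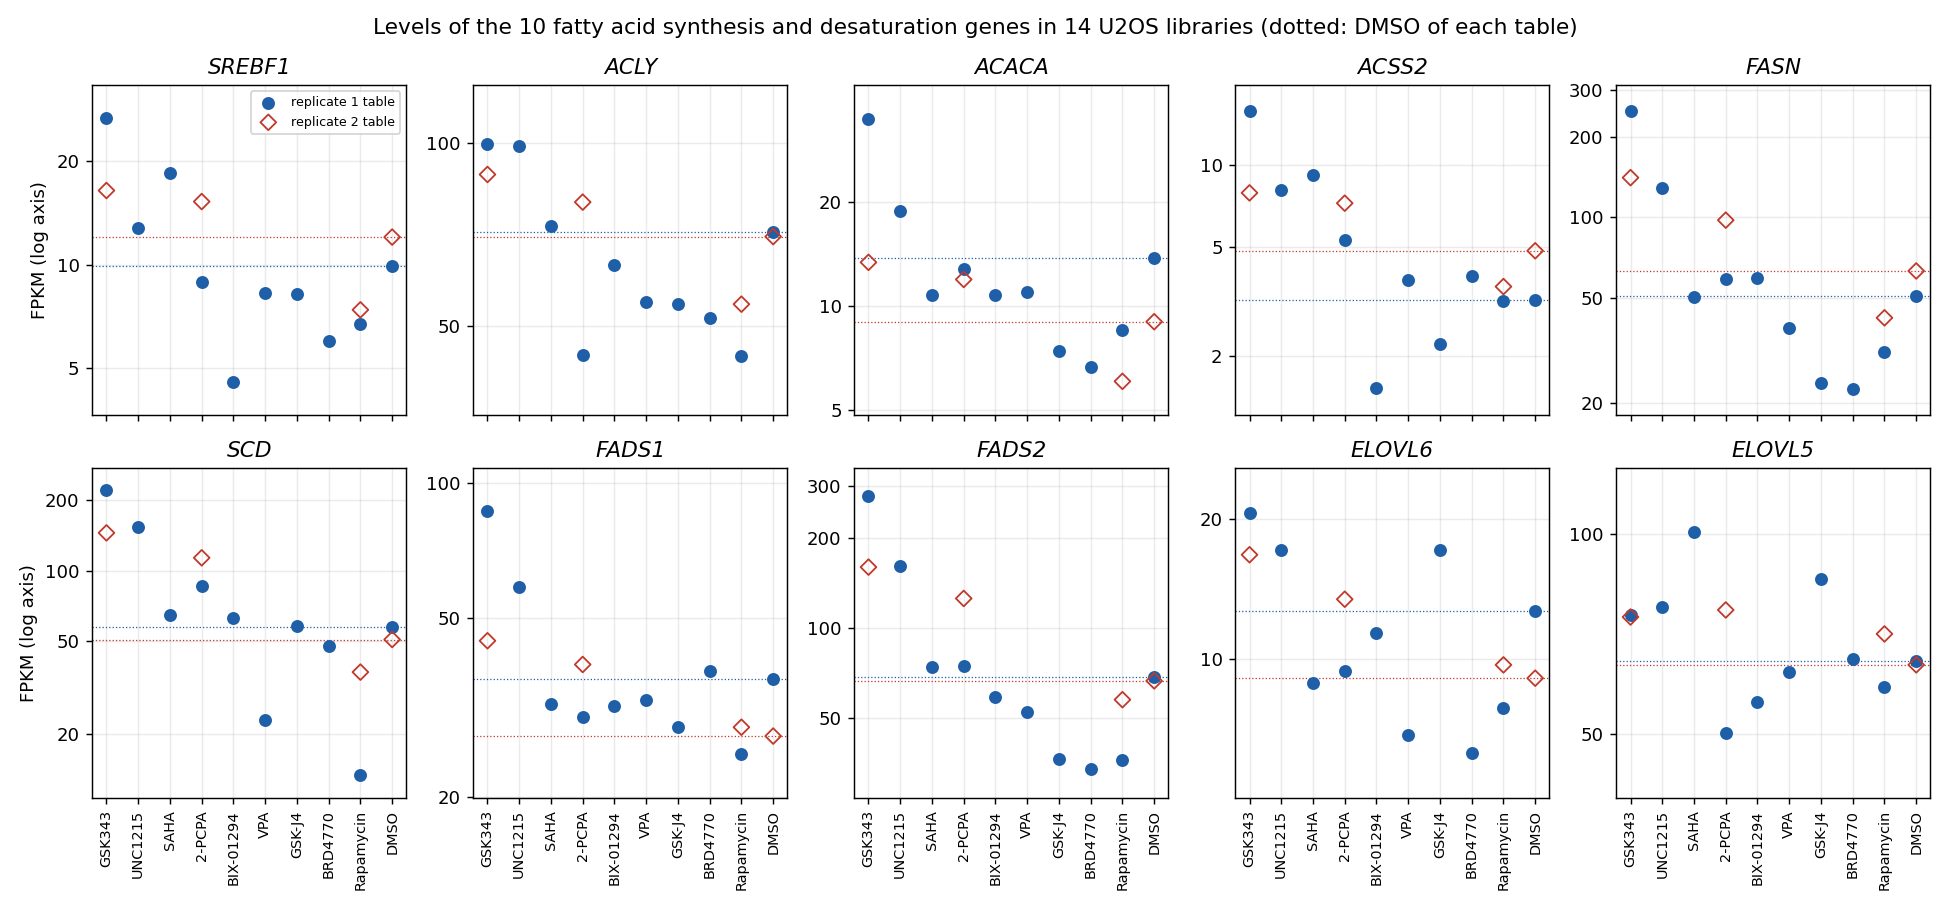
FPKM (log axis) of the 10 genes, 1 panel a gene, in each treated group and, at the right, DMSO; each point is 1 library and the marker shows the replicate. Dotted lines mark DMSO of each table. GSK343 lies above DMSO of its own table in every panel, and rapamycin replicate 1 is the lowest point of SCD at 13.5 FPKM.

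The span between the highest and the lowest replicate 1 library was 16.4-fold for SCD, 11.1-fold for FASN, 10.3-fold for ACSS2 and 8.18-fold for FADS2, but 2.25-fold for ACLY and 2.02-fold for ELOVL5. SREBF1 (5.81-fold), ACACA (5.22-fold), FADS1 (3.47-fold) and ELOVL6 (3.29-fold) lay between. The compound with the lowest level varied by gene: BRD4770 for ACACA, FASN, FADS2 and ELOVL6, rapamycin for ACLY, SCD and FADS1, BIX-01294 for SREBF1 and ACSS2, and 2-PCPA for ELOVL5.

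Promoter windows of 250 bases before to 50 bases after the annotated start were taken from RefSeq (GRCh38.p14). They gave 14 windows for 9 of the 10 members, and FASN, which had none, was not searched. Windows of the same gene can overlap, as those of ACLY do, so some matches are counted more than once. The FPKM values rest on hg19, and no coordinate was carried between the builds. The 3 windows shown are those of SCD and ELOVL5, the genes with the widest and the narrowest span, and the second window of FADS2, whose start lies 599 bases from that of FADS1 on the opposite strand. Capitals mark matches, on either strand, to CCAAT (the box bound by NF-Y), GGGCGG (bound by SP1) and CACGTG (an E-box); NF-Y and SP1 are known partners of SREBP on lipid gene promoters.
SCD: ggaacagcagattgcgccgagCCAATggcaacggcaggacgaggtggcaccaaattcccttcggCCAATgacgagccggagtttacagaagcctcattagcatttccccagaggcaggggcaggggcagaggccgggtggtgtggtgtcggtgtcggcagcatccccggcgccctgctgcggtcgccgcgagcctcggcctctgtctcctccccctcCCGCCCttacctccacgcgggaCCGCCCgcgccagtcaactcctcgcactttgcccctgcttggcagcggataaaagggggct
FADS2: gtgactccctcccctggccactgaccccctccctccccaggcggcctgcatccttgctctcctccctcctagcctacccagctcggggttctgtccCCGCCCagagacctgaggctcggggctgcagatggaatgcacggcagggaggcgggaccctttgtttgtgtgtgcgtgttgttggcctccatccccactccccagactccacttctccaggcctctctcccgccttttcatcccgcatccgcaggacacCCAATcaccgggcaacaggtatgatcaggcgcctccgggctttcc
ELOVL5: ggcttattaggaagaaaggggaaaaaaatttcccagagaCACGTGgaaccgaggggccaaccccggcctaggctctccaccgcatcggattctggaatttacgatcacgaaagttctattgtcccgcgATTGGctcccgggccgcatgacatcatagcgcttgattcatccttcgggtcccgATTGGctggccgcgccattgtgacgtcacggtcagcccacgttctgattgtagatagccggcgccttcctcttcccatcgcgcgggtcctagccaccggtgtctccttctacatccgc
The SCD window is chr10:100346983-100347282 on the plus strand, with CCAAT at −229 and −186 and GGGCGG at −33 and −11, counted from the annotated start. The FADS2 window is chr11:61816154-61816453 on the plus strand, with GGGCGG at −154 and CCAAT at 5. The ELOVL5 window is chr6:53348901-53349200 on the minus strand, with CACGTG at −211 and CCAAT at −122 and −68, and it has no GGGCGG. The CCAAT box was found in 8 of the 14 windows, from 6 members, and in 34.6% of all 35116 windows. The letters GGGCGG were found in 11 of the 14 windows, from 8 members, and in 45% of all windows, and CACGTG in 1 of the 14, that of ELOVL5, and in 7.26% of all windows. The sterol element TCACNCCAC was found in 0 of the 14 windows and in 1.13% of all windows. At so low a share, 0 matches in 14 windows does not show that these genes lack such elements. Other forms of the element were not searched. Matches of different motifs did not overlap in these windows, and 4 pairs of matches of the same motif did. A match describes letters in the window and is not a measured site.

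GSK343 passed the threshold for no member in the full fit, while every member was above DMSO in both tables. FASN had 251 and 141 FPKM in GSK343, against 50.9 and 62.9 FPKM in DMSO, so each treated library lay above DMSO of its own table. Its log2 fold change was 1.72 ± 0.36 (SE; 95% interval 0.91 to 2.53; limma adjusted p = 0.747). SCD had 220.1 and 145 FPKM in GSK343 and 57.2 and 50.8 FPKM in DMSO, a log2 fold change of 1.71 ± 0.42 (0.75 to 2.67; adjusted p = 0.895). Each GSK343 library was again above DMSO of its own table. Treated and DMSO levels are compared within a table, as every ratio was. The DMSO libraries summed to 456039 FPKM in replicate 1 and 731805 FPKM in replicate 2. FADS2, the delta-6 desaturase, had 276 and 160.0 FPKM in GSK343 and 68.3 and 66.5 FPKM in DMSO, with 1.63 ± 0.37 and an adjusted p of 0.792. Without the small RNA and clone rows, the adjusted p was 0.00783 for FASN, 0.0127 for SCD and 0.0125 for FADS2.

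ACSS2, which activates acetate, had 15.6 and 7.89 FPKM in GSK343, against 3.19 and 4.85 FPKM in DMSO. Its log2 fold change was 1.30 ± 0.33 (limma adjusted p = 0.913, and 0.0282 without those rows), and the replicate 1 ratio of 4.90 stood far above the replicate 2 ratio of 1.63. ACLY, the citrate route to the same product, differed less: 99.9 and 88.8 FPKM in GSK343 and 71.5 and 70.1 FPKM in DMSO, a log2 fold change of 0.41 ± 0.28. ACACA, the step that commits acetyl-CoA to synthesis, had 34.8 and 13.4 FPKM in GSK343 and 13.7 and 9.01 FPKM in DMSO. Each GSK343 library lay above DMSO of its own table, at log2 ratios of 1.28 in replicate 1 and 0.52 in replicate 2. SREBF1 itself had 26.6 and 16.4 FPKM in GSK343 and 9.88 and 12.0 FPKM in DMSO, with 0.88 ± 0.31.

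The remaining desaturase and the elongases were graded. FADS1, the delta-5 desaturase, had 86.7 and 44.6 FPKM in GSK343, against 36.7 and 27.4 FPKM in DMSO, and a log2 fold change of 0.95 ± 0.33. ELOVL6 had 20.6 and 16.7 FPKM in GSK343, against 12.7 and 9.07 FPKM in DMSO, and was 1 of 2 members whose log2 ratio was larger in replicate 2 (0.82) than in replicate 1 (0.66). ELOVL5, the other, had 75.4 and 75.0 FPKM in GSK343 and 64.4 and 63.5 FPKM in DMSO, a log2 fold change of 0.23 ± 0.24 whose 95% interval of −0.33 to 0.79 includes 0. The remaining 8 members had the larger ratio in replicate 1, with a median over the members of 1.31 in replicate 1 and 0.64 in replicate 2.

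Over all 10 members the median log2 fold change of GSK343 against DMSO was 0.93, beside 0.03 over all genes tested. Members called numbered 0, where the fit called 2 of 12603 genes (0.0159%), and 8 members had an unadjusted p under 0.05, as did 532 genes of which 416 were higher. All 10 members were higher in both replicates, as were 34.6% of all genes tested. Without the small RNA and clone rows, 4 members were called, where 0.368% of 12242 genes were.

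**Figure D3:**
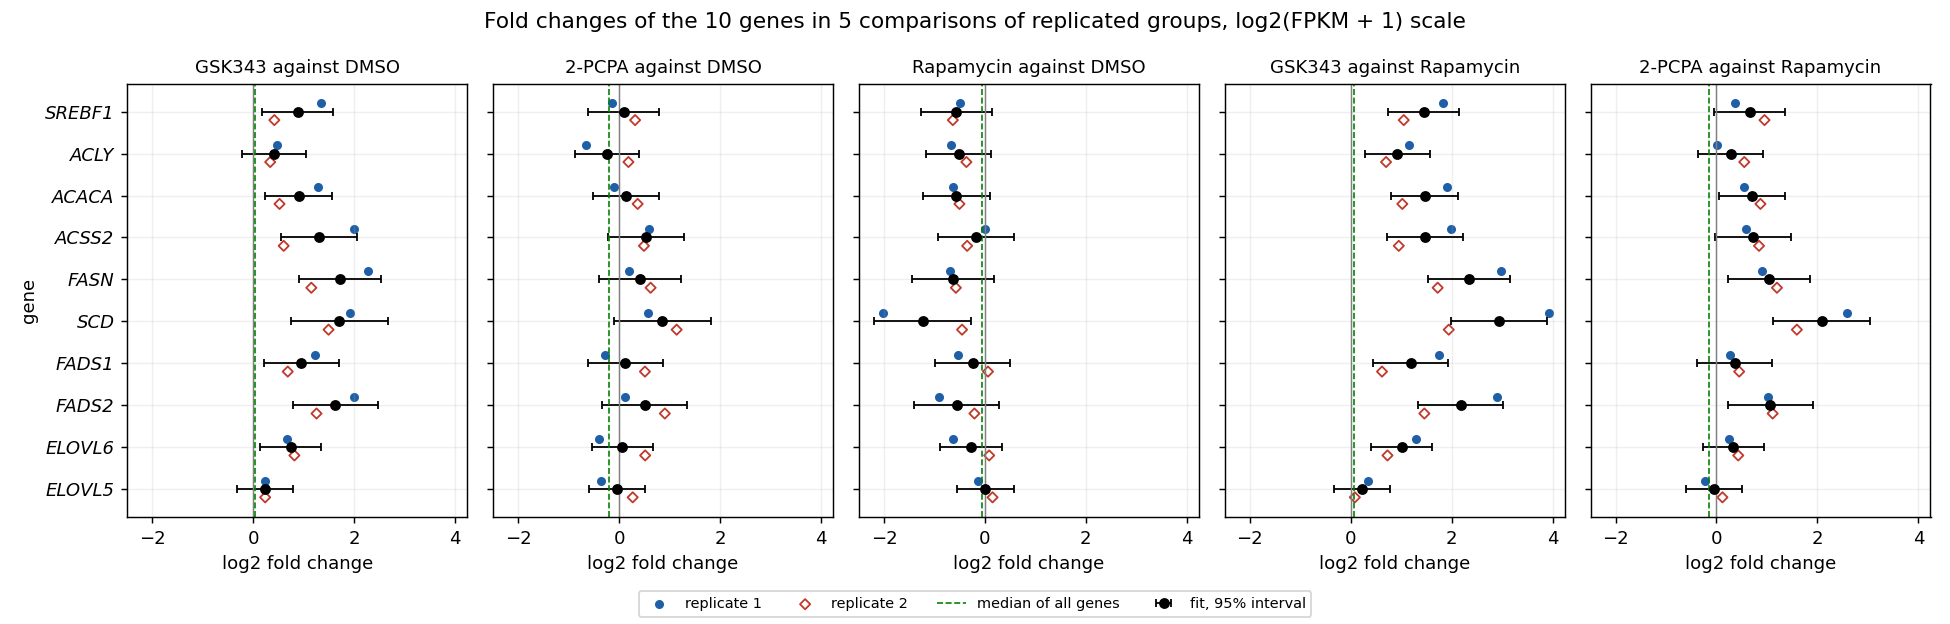
Log2 fold change (x axis, log2(FPKM + 1) scale) of each gene (rows) in 5 comparisons of replicated groups (panels). Black points and bars are the limma estimate and its 95% interval, coloured marks are the 2 replicates, and the dashed line is the median of all genes. GSK343 against DMSO runs from 0.23 for ELOVL5 to 1.72 for FASN, and rapamycin against DMSO reaches −1.23 for SCD.

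Rapamycin had 7 members below DMSO in both replicates, and SCD was the furthest from it. SCD had 13.5 and 36.9 FPKM in rapamycin, against 57.2 and 50.8 FPKM in DMSO, a log2 fold change of −1.23 ± 0.42 (95% interval −2.19 to −0.27; limma adjusted p = 0.721, and 0.0867 without the small RNA and clone rows). Each rapamycin library lay below DMSO of its own table. The log2 ratio was −2.01 in replicate 1 but −0.45 in replicate 2, so replicate 1 carried most of it. FASN had 31.1 and 41.9 FPKM in rapamycin and 50.9 and 62.9 FPKM in DMSO, with close ratios of 0.612 and 0.667. ACACA had 8.51 and 6.07 FPKM in rapamycin, against 13.7 and 9.01 FPKM in DMSO, and SREBF1 had 6.71 and 7.39 FPKM, against 9.88 and 12.0 FPKM. These 3 genes each had a log2 fold change between −0.63 and −0.56, similar in both replicates, and none passed the limma test (adjusted p of 0.757 to 0.765).

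ACLY had 44.5 and 54.2 FPKM in rapamycin and 71.5 and 70.1 FPKM in DMSO, a log2 fold change of −0.52 ± 0.28. FADS2 had 36.0 and 57.5 FPKM in rapamycin and 68.3 and 66.5 FPKM in DMSO, with a ratio of 0.526 in replicate 1 and 0.865 in replicate 2. ACSS2 had 3.19 and 3.59 FPKM in rapamycin and 3.19 and 4.85 FPKM in DMSO, so only replicate 2 showed a difference. FADS1, ELOVL6 and ELOVL5 lay below DMSO in replicate 1 and above it in replicate 2. FADS1 had 25 and 28.6 FPKM in rapamycin, against 36.7 and 27.4 FPKM in DMSO, ELOVL6 had 7.81 and 9.69 FPKM, against 12.7 and 9.07 FPKM, and ELOVL5 had 58.9 and 70.7 FPKM, against 64.4 and 63.5 FPKM. The median over the members was −0.54, beside −0.05 over all genes. Members called numbered 0 where 0.0159% of genes were, and 1 member, SCD, had an unadjusted p under 0.05, as did 814 genes. Without the small RNA and clone rows, 0 members were called, where 0.539% of genes were. The 7 members lower in both replicates, counting ACSS2 at −0.0016 in replicate 1, compare with 37.1% of all genes tested.

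With 2-PCPA the 2 replicates differed, and the library that stood apart is 1 of them. In replicate 2 all 10 members were higher than DMSO, with a median log2 ratio of 0.50. In replicate 1 only 4 were higher, with a median of −0.11, in a library whose median gene lay at −0.43, so that the members lay 0.32 above the median gene. In the fit, which shares both replicates, all genes had a median of −0.20 and the members 0.13. Leaving out that library gave a member median of 0.50 and an all-gene median of 0.01. Leaving out 2-PCPA replicate 2 instead gave a member median of −0.22, so the sign of the uncentred median rests on which library is kept. Relative to the median gene, the members lay above it in both replicates, by 0.32 and 0.50, and the centred fit gave a member median of 0.33. The replicate 1 library of 2-PCPA summed to 291956 FPKM, against 456039 FPKM in DMSO. Whether its olfactory receptor signal bears on the member values was not tested.

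SCD had 85.6 and 113 FPKM in 2-PCPA, against 57.2 and 50.8 FPKM in DMSO. Its log2 fold change was 0.86 ± 0.42 (95% interval −0.10 to 1.82, limma adjusted p = 0.592), the largest of the members in this comparison. Each treated library exceeded DMSO of its own table. FADS2 had 74.3 and 126 FPKM in 2-PCPA, against 68.3 and 66.5 FPKM in DMSO, FASN had 58.8 and 97.6 FPKM, against 50.9 and 62.9 FPKM, and ACSS2 had 5.31 and 7.24 FPKM, against 3.19 and 4.85 FPKM. These were the other members higher in both replicates, with log2 fold changes of 0.51, 0.42 and 0.54. Without 2-PCPA replicate 2 the log2 fold change was 0.11 for FADS2, 0.036 for FASN and 0.30 for ACSS2, and without DMSO replicate 1 it was 0.24 for ACSS2. ACLY had 44.8 FPKM in 2-PCPA replicate 1, against 71.5 FPKM in DMSO, and 80.0 FPKM in replicate 2, against 70.1 FPKM. SREBF1 (8.91 and 15.2 FPKM in 2-PCPA), ACACA (12.8 and 11.9 FPKM), FADS1 (30.2 and 39.5 FPKM), ELOVL6 (9.41 and 13.4 FPKM) and ELOVL5 (50.0 and 76.9 FPKM) likewise lay on opposite sides of DMSO in the 2 tables. In 2-PCPA replicate 1 their log2 ratios ran from −0.39 to −0.09, above that library's median gene at −0.43. ACLY, at −0.66, lay below that median gene. Members called numbered 0 where 0.0238% of genes were called, and 0 had an unadjusted p under 0.05, as did 943 genes. The 4 members higher in both replicates compare with 11.5% of all genes tested.

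Set against rapamycin rather than DMSO, GSK343 and 2-PCPA gave larger member medians, and these comparisons share the rapamycin libraries. Each value is the change against DMSO less that of rapamycin against DMSO, so it is not a separate result. ELOVL5 was not wider in GSK343, at 0.22 against rapamycin and 0.23 against DMSO. SCD had 220.1 and 145 FPKM in GSK343 and 13.5 and 36.9 FPKM in rapamycin, a log2 fold change of 2.94 ± 0.42 (95% interval 1.98 to 3.90; limma adjusted p = 0.0644). FASN followed with 2.35 ± 0.36 (adjusted p = 0.0795) and FADS2 with 2.18 ± 0.37 (adjusted p = 0.133). All 10 members were higher in GSK343 in both replicates, as were 39.6% of genes, and every member's log2 difference was larger in replicate 1. The median was 1.46, beside 0.08 over all genes. Members called numbered 0 where 0.0793% of genes were, and 9 members had an unadjusted p under 0.05, as did 706 of 12603 genes. Without the small RNA and clone rows, 7 members were called (SCD, FASN, FADS2, ACACA, SREBF1, ACSS2 and FADS1) where 0.801% of genes were, with adjusted p-values up to 0.0403. Leaving out 1 library at a time moved the SCD log2 fold change between 2.18 and 3.70.

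For 2-PCPA against rapamycin, which also differ in hours, 9 members were higher in both replicates, as were 15.3% of genes, with a median of 0.68 beside −0.14 over all genes. SCD had 85.6 and 113 FPKM in 2-PCPA and 13.5 and 36.9 FPKM in rapamycin, a log2 fold change of 2.09 ± 0.42 (limma adjusted p = 0.220, and 0.000518 without the small RNA and clone rows). SCD was the only member called without those rows, where 1.71% of genes were. With them 0 members were called, where 0.0476% of genes were. An unadjusted p under 0.05 held for 4 members and for 1483 of 12603 genes tested. ELOVL5 was the exception in direction, at −0.06 ± 0.24, with 50.0 and 76.9 FPKM in 2-PCPA and 58.9 and 70.7 FPKM in rapamycin.

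The remaining 6 compounds have 1 library each, so their values have no replicate check and no test, and a gene past 1.5-fold on the log2(FPKM + 1) scale is only counted. In UNC1215 all 10 members lay above DMSO, 5 of them past 1.5-fold, where 6.26% of 12804 genes were past it upward and 4.09% downward. SCD had 153 FPKM in UNC1215, against 57.2 FPKM in DMSO, FADS2 had 162 FPKM, against 68.3 FPKM, and FASN had 129 FPKM, against 50.9 FPKM. ACSS2, at 8.10 FPKM in UNC1215, against 3.19 FPKM in DMSO, and FADS1, at 58.6 FPKM, against 36.7 FPKM, were the others. Its linear ratios for these 5 genes ran from 1.60 to 2.67, against 2.36 to 4.94 in GSK343 of the same table. In GSK343 replicate 2, against DMSO of its own table, they ran from 1.63 to 2.85. UNC1215 at 2.54 for both ACSS2 and FASN was above GSK343 replicate 2, at 1.63 and 2.24. The doses differ as well (50 µM of UNC1215 and 10 µM of GSK343).

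In SAHA the median log2 ratio over the members was 0.07, beside 0.05 over all genes. SREBF1 had 18.5 FPKM in SAHA, against 9.88 FPKM in DMSO, ACSS2 had 9.20 FPKM, against 3.19 FPKM, and ELOVL5 had 100.9 FPKM, against 64.4 FPKM. These were its 3 members past 1.5-fold upward, where 19.1% of genes were, and 0 were past it downward, where 11.8% were. FASN, SCD, FADS2 and ACLY stayed between −0.02 and 0.18 of DMSO on the log2(FPKM + 1) scale. ELOVL6, ACACA and FADS1 were at −0.47, −0.32 and −0.18. SREBF1, the gene of their regulator, was at 0.84 on the same scale in this single library. SAHA was the library with the highest ELOVL5. VPA, the other deacetylase inhibitor, was given at 20 µM, against 1 µM of SAHA, so the doses differ and no comparison is made. SCD had 23.1 FPKM in VPA, against 57.2 FPKM in DMSO, and ELOVL6 had 6.83 FPKM, against 12.7 FPKM. These 2 were its members past 1.5-fold downward, where 6.83% of genes were, and 0 were past it upward, where 10.1% were.

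BRD4770 and BIX-01294 are both G9a inhibitors given at different doses and hours, so their values stand side by side only. In BRD4770, 5 members were past 1.5-fold downward, where 13.8% of genes were, and 0 upward, where 14.5% were. FASN had 22.6 FPKM in BRD4770, against 50.9 FPKM in DMSO, FADS2 had 33.7 FPKM, against 68.3 FPKM, and ACACA had 6.66 FPKM, against 13.7 FPKM. ELOVL6 (6.27 FPKM in BRD4770, against 12.7 FPKM in DMSO) and SREBF1 (6.0 FPKM, against 9.88 FPKM) were the others, while FADS1 and ELOVL5 stayed within 0.06 of DMSO in log2 ratio. In BIX-01294, 2 members were past 1.5-fold downward, where 15.5% of genes were, and 0 upward, where 21.9% were. They were SREBF1, at 4.58 FPKM in BIX-01294, against 9.88 FPKM in DMSO, and ACSS2, at 1.52 FPKM, against 3.19 FPKM. FASN and SCD lay slightly above DMSO in that library, at ratios of 1.16 and 1.09.

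In GSK-J4, 3 members were past 1.5-fold downward, where 16.4% of genes were, and 0 upward, where 19.1% were. FASN had 23.9 FPKM in GSK-J4, against 50.9 FPKM in DMSO, FADS2 had 36.5 FPKM, against 68.3 FPKM, and ACACA had 7.42 FPKM, against 13.7 FPKM. SCD did not share this, with 58.0 FPKM in GSK-J4 and 57.2 FPKM in DMSO, and both elongases lay above DMSO, ELOVL6 at 17.1 FPKM, against 12.7 FPKM, and ELOVL5 at 85.7 FPKM, against 64.4 FPKM. In this library the chain-building genes ACACA and FASN thus lay below DMSO and both elongases above it.

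The genes most like SCD and FASN were sought by the mean absolute difference of log2 ratios over the 9 treated libraries of replicate 1, among 8764 genes, as a description. Among the genes nearest to SCD were SQLE (0.41), INSIG1 (0.42), MSMO1 (0.46) and DHCR7 (0.49), of which all but INSIG1 encode enzymes of cholesterol synthesis and INSIG1 encodes the protein that retains the SREBP escort in the endoplasmic reticulum. FADS2 was the nearest member, at rank 6, and ELOVL5 the farthest, at rank 1394. For FASN the nearest were FDFT1 (0.13), FADS2 (0.17), C14orf1 (0.18), FDPS (0.19) and MVD (0.21), with ELOVL5 at rank 4205. SCD stood at rank 40 for FASN. In replicate 1 the pair parted most in rapamycin, where SCD was at −2.01 and FASN at −0.69. GSK-J4 followed, with SCD at 0.02 and FASN at −1.06. In rapamycin replicate 2 SCD was at −0.45 and FASN at −0.57, so the gap was not seen there. The ranking did not use replicate 2. There SQLE had log2 ratios of 1.16 in GSK343, 0.95 in 2-PCPA and −0.50 in rapamycin, beside 1.49, 1.14 and −0.45 for SCD. The genes nearest to FASN lay between 0.85 and 1.52 in GSK343 of that table, beside 1.15 for FASN. In rapamycin FASN was at −0.57, but FDFT1, C14orf1 and FDPS were at 0.14, 0.013 and 0.050. FADS2 and MVD were at −0.21 and −0.29 there.

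Other lists of the pathway were counted in the same limma fit, and 0 of their genes were called in any of the 3 comparisons with DMSO. Of 20 genes of cholesterol synthesis and uptake, the sister pathway under SREBP-2, 20 were higher in both replicates in GSK343, where 34.6% of all genes were, and their median lay 1.29 above that of all genes, against 0.89 for the fatty acid genes. With an unadjusted p under 0.05 there were 19 of the 20, beside 532 of 12603 genes tested. Without the small RNA and clone rows 13 were called, all higher, where 0.368% of 12242 genes were called. MVD, an enzyme of the mevalonate steps, had 167 and 119 FPKM in GSK343, against 31.7 and 41.1 FPKM in DMSO. In 2-PCPA 17 of the 20 were higher in both replicates, where 11.5% of all genes were, and in rapamycin 13 were lower in both, where 37.1% were. Unadjusted p under 0.05 held for 5 of them in 2-PCPA, all higher, beside 943 of 12603 genes tested. In rapamycin it held for 11, 10 lower and 1 higher, beside 814 of 12603 genes. HMGCS1, which makes HMG-CoA, had 11.5 and 17.5 FPKM in rapamycin, against 35.8 and 31.6 FPKM in DMSO, and was called without the small RNA and clone rows (limma adjusted p = 0.0383). In replicate 1 the cholesterol list and the fatty acid members lay on the same side of the median gene in GSK343, UNC1215, 2-PCPA, rapamycin, VPA, GSK-J4 and BRD4770. In BIX-01294 the cholesterol list lay 0.22 above the median gene and the fatty acid members lay at −0.26, and in SAHA the 2 values were −0.05 and 0.02.

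**Figure D4:**
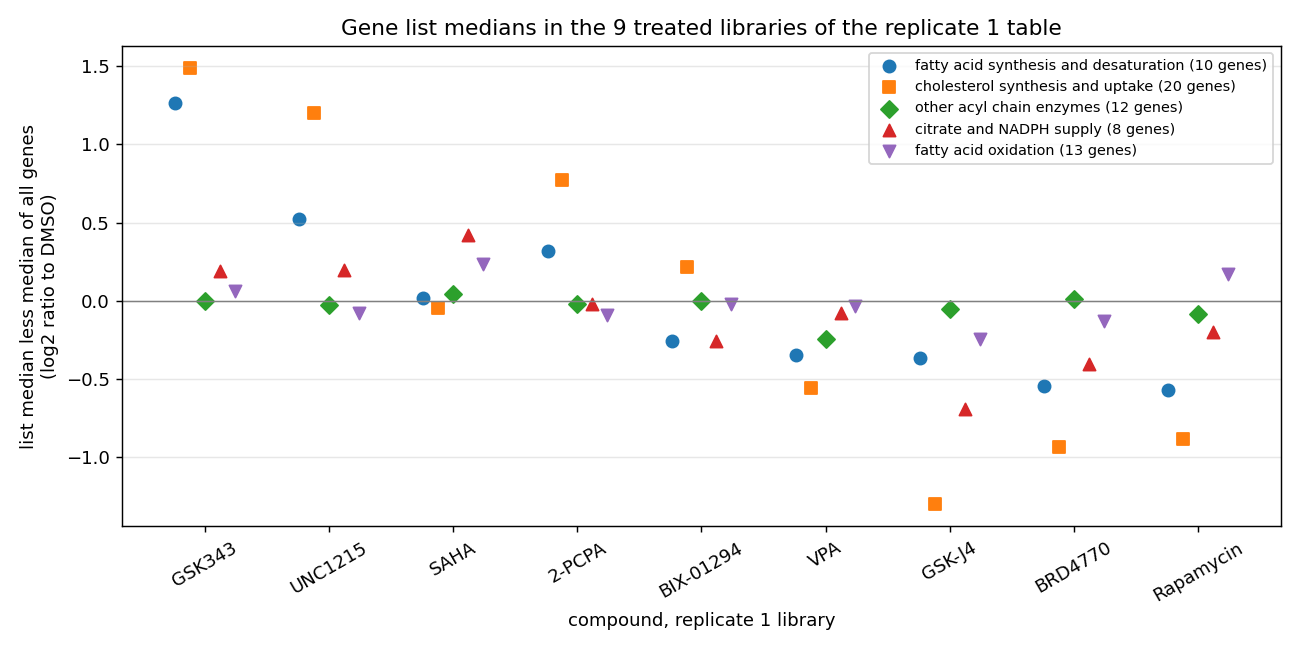
Median log2 ratio to DMSO of 5 gene lists less the median of all genes (y axis, log2(FPKM + 1) scale) in the 9 treated replicate 1 libraries (x axis), 1 marker shape a list. The cholesterol list runs from 1.49 in GSK343 to −1.30 in GSK-J4 and the fatty acid genes from 1.26 to −0.57, while fatty acid oxidation stays between −0.25 and 0.24.

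Of 14 tested genes of SREBP processing and lipogenic regulation, 8 were higher in both replicates in GSK343, where 34.6% of all genes were. INSIG1 had 36.3 and 30.7 FPKM in GSK343, against 8.48 and 9.55 FPKM in DMSO, a log2 fold change of 1.78 ± 0.29 (limma adjusted p = 0.511, and 0.00262 without the small RNA and clone rows). SREBF2, the gene of SREBP-2, had 109.9 and 80.5 FPKM in GSK343, against 45.8 and 53.0 FPKM in DMSO. In rapamycin 5 of these genes were higher and 4 lower in both replicates, where 25.5% and 37.1% of all genes were, with a median 0.10 above all genes. INSIG1, 1 of those lower, had 2.89 and 6.90 FPKM in rapamycin, against 8.48 and 9.55 FPKM in DMSO. Of 8 genes supplying citrate and NADPH, 7 were lower in both rapamycin replicates, where 37.1% of all genes were. Their median lay at −0.18 relative to all genes, and 2 had an unadjusted p under 0.05, as did 814 of 12603 genes. IDH1, the cytosolic NADPH-producing isocitrate dehydrogenase, had 11.4 and 23.5 FPKM in rapamycin, against 33.5 and 34.0 FPKM in DMSO. In GSK343 the same list was split, with 4 genes higher and 4 lower in both replicates, where 34.6% and 26.7% of all genes were, and a median 0.16 above all genes. SLC25A1, the mitochondrial citrate carrier that feeds ACLY, had 99.7 and 78.1 FPKM in GSK343, against 41.3 and 55.5 FPKM in DMSO.

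Lists further from the pathway were counted in the same way. Of 12 other acyl chain enzymes, 6 were higher in both replicates in GSK343, where 34.6% of all genes were, and 6 lower in both in rapamycin, where 37.1% were. The list's median lay 0.09 above that of all genes in GSK343 and at −0.07 relative to it in rapamycin. PTPLB, a dehydratase of chain elongation, had 13.9 and 21.8 FPKM in rapamycin, against 26.3 and 31.7 FPKM in DMSO. SCD5, the second stearoyl-CoA desaturase, had 17.8 and 18.3 FPKM in GSK343, against 12.9 and 16.1 FPKM in DMSO. Of 11 acyl-CoA ligases and enzymes of glycerolipid assembly, 6 were higher in both replicates in GSK343, where 34.6% of all genes were, with a median 0.16 above all genes. DGAT1 was among them with 18.2 FPKM in replicate 1 but 332 FPKM in replicate 2, against 14 and 21.6 FPKM in DMSO. Of 13 genes of fatty acid oxidation, 4 were higher and 4 lower in both rapamycin replicates, where 25.5% and 37.1% of all genes were, with a median 0.07 above all genes.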

How the data were processed

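The deposited tables held FPKM values per gene from poly(A) RNA libraries of U2OS cells, computed by the authors; per the submitters' processing notes, FastQC, cutadapt and TopHat2 were used on the reads, with the hg19 build. The sources used here name no versions, FPKM program, annotation or strand, so genes that overlap or have near copies are uncertain. The deposited tables had 28502 and 25209 rows and 10 and 4 libraries; 1 row named unknown was left out, and 0 columns were unused. Absolute depth is unknown because FPKM holds no counts.

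From the authors' FPKM, log2(FPKM + 1) was computed; fold changes of low genes are therefore understated, and every ratio was taken within a table. The 8 libraries of GSK343, 2-PCPA, rapamycin and DMSO entered limma 3.58.1 in R 4.3.3, with terms for group and replicate number and a trended eBayes step (residual degrees of freedom 3, prior 5.42). The 12603 genes averaging 1 FPKM or more were tested, with Benjamini-Hochberg adjustment at 0.05. The replicate number marks the table, and same-numbered libraries deviated together (correlation 0.71 to 0.784 over 6 pairs), so it was kept as a block. The same script was tested on simulated data. Compounds with 1 library got no test. All 10 members were named in every comparison; of each other list, up to 4 genes with the largest change on the same side of DMSO in both replicates could be named. SCD and FASN were the genes whose nearest patterns were ranked, and 1 gene of that ranking is not reported here. The members and lists were chosen with earlier results of these data known. Alternatives are in the closing section. Promoter sequences were from RefSeq.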

Additional observations from a re-analysis of the deposited data

How the results depend on the processing

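Of 850 alternative values of single members, 805 kept direction and side of the threshold, 21 kept direction and passed the threshold, and 24 changed direction. For 2-PCPA against DMSO, leaving out 1 library at a time moved the log2 fold change between −0.20 and 0.47 for ACACA, −0.64 and 0.16 for ACLY, −0.31 and 0.22 for ELOVL5, −0.25 and 0.37 for ELOVL6, −0.26 and 0.50 for FADS1 and −0.31 and 0.50 for SREBF1; rescaling to TPM gave 0.12 for ACLY and 0.32 for ELOVL5, and median centring gave 0.16 for ELOVL5. For 2-PCPA against rapamycin the ranges were −0.12 to 0.68 for ACLY, −0.32 to 0.21 for ELOVL5 and −0.023 to 0.74 for FADS1, with ELOVL5 at 0.38 as TPM and 0.11 after centring. For rapamycin against DMSO they were −0.48 to 0.13 for ACSS2, −0.14 to 0.17 for ELOVL5 (−0.067 as TPM), −0.57 to 0.024 for ELOVL6 and −0.50 to 0.021 for FADS1.

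Counts of members called changed with the rows tested. Without small RNA and clone rows they were 4 for GSK343 against DMSO, 1 for 2-PCPA against rapamycin and 7 for GSK343 against rapamycin. The last was also 2 as TPM, 4 with a minimum mean of 5 FPKM, and 0 to 3 when 1 library was left out. Member medians ranged from −0.22 to 0.50 (2-PCPA against DMSO, 0.49 as TPM and 0.33 after centring), from 0.50 to 1.42 (GSK343 against DMSO), from −0.56 to −0.33 (rapamycin against DMSO) and from 0.31 to 1.00 (2-PCPA against rapamycin, 1.13 as TPM) when 1 library was left out. Beyond 1.5-fold downward, BIX-01294 and VPA each had 1 member with a pseudocount of 5, and SAHA had 1 as TPM.

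Counts over all genes moved more. For 2-PCPA against DMSO, 3 genes were called; the count was 1 without the low-value filter, 1 without the replicate block, 0 and 1 with pseudocounts of 0.1 and 5, 38 without small RNA and clone rows, and 2 to 47 when 1 library was left out. For GSK343 against DMSO, with 2 called, it was 1 as TPM, 1 at 5 FPKM, 0 after centring, 0 without the filter, 0 without the replicate block, 0 and 1 with pseudocounts of 0.1 and 5, 45 without small rows, and 0 to 44 when 1 library was left out. For rapamycin against DMSO, with 2 called, it was 1 without the trend, 4 at 5 FPKM, 0 after centring, without the filter, without the replicate block and with either pseudocount, 66 without small rows, and 0 to 42 when 1 library was left out. For 2-PCPA against rapamycin, with 6 called, it was 69 as TPM, 32 at 5 FPKM, 13 after centring, 2 without the filter, 1 without the replicate block, 209 without small rows, and 1 to 49 when 1 library was left out. For GSK343 against rapamycin, with 10 called, it was 25 as TPM, 35 at 5 FPKM, 0 without the filter, 0 without the replicate block, 6 with a pseudocount of 0.1, 98 without small rows, and 0 to 38 when 1 library was left out. The cause of these changes was not tested. Leaving out 1 library leaves its group with 1 library, assumed to vary like the others. With 2 replicates, a median SE of 0.249 in log2 and unknown depth, small changes of single genes were not resolved.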
